A study of Mus musculus with 12 samples.

Results

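The SR proteins and the hnRNPs are the 2 large families of RNA-binding proteins that steer the choice of splice sites in pre-mRNA. The 31 genes described here are the protein-coding mouse genes on primary chromosomes whose symbols are Srsf followed by a number (11 SR proteins: Srsf1 to Srsf7 and Srsf9 to Srsf12) or begin with Hnrnp (20 hnRNPs). They were taken from 52962 genes by symbol alone. All 31 passed the filter on low counts, and of 372 values (31 genes in 12 libraries) 2 were 0.

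The study measured total RNA of mouse rod photoreceptors at postnatal day 8 in 4 groups of 3 libraries, named shRNA Control, shRNA mCsnk2a1, pcDNA4c Control and pcDNA4c mCsnk2a1. Retinas had been electroporated with a control shRNA, an shRNA against Csnk2a1, a pcDNA4c control vector or a pcDNA4c vector carrying Csnk2a1, and GFP-positive rods were picked by hand, 50 to 100 cells for a library. Csnk2a1 encodes a catalytic subunit of protein kinase CK2, and the series title concerns how CK2 affects the expression controlled by NRL, the transcription factor that fixes rod fate. Strain, sex, the promoter of the expressed gene and whether each library came from a separate animal are not given in the sources used here, so the spread behind each p-value may be technical.

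SR proteins carry RNA recognition motifs and a domain rich in arginine and serine. They bind exonic enhancers and help the spliceosome define exons, and SRPK and CLK kinases phosphorylate that domain. The hnRNPs coat nascent RNA, and many of them block splice sites or silence exons, so that the balance between both families sets many exon choices. Many members limit their own amount: their protein promotes a splice form with an early stop codon, which nonsense-mediated decay then removes. Photoreceptors are known for a splicing programme of their own, and hnRNP C is a classical substrate of CK2.

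Transcripts annotated to nonsense-mediated decay (called decay transcripts below) exist in both families, and the stops of 6 are printed because later values turn on such transcripts. They belong to the most abundant decay transcript in each of 3 SR genes and 3 hnRNP genes, picked after their levels were seen. Each line gives the last 60 coding bases of the transcript, 5′ to 3′, from GENCODE M21 on GRCm38, with the stop codon in capitals. Of the 6 stops, 4 are used by no coding transcript of their gene that has an annotated stop.
Srsf3-201: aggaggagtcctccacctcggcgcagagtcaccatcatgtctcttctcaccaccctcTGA
Srsf1-204: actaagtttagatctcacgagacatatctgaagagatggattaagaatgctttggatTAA
Srsf6-201: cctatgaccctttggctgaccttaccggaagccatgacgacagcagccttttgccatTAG
Hnrnpk-229: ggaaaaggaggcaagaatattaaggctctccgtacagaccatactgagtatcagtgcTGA
Hnrnpu-206: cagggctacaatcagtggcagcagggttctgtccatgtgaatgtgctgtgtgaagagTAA
Hnrnpd-209: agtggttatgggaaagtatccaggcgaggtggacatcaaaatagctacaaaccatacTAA

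The Srsf3-201 stop lies at chr17:29039485-29039487 on the plus strand, and 3 exon junctions follow it in the transcript. The last 34 printed bases come from the exon that holds the stop, and the 1 protein-coding Srsf3 transcript with an annotated stop does not use it. In Srsf1-204 the stop is at chr11:88050013-88050015, 1 junction follows, and none of 3 coding transcripts with an annotated stop shares it. The Hnrnpu-206 stop, at chr1:178325281-178325283 on the minus strand, comes after 793 residues and before 3 further junctions. Hnrnpk-229 stops at chr13:58396879-58396881 on the minus strand after 77 residues, and none of the 9 coding transcripts with an annotated stop uses it. Hnrnpd-209 differs from these: its stop, at chr5:99962545-99962547 on the minus strand, is used by all 4 coding Hnrnpd transcripts with an annotated stop. Its annotation as a decay transcript goes with 2 junctions after it. The Srsf6-201 stop at chr2:162932964-162932966 is shared with 1 of 2 coding transcripts and is followed by 4 junctions.

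Facts about the whole series that touch these genes were as follows. Estimated counts summed to between 1608926 and 3567121 a library, and both control groups (at most 2017623) lay below both mCsnk2a1 groups (at least 2296056). Levels are given as CPM, estimated counts per 1e6 after TMM scaling. Csnk2a1 itself averaged 44.2 ± 31.3 CPM with the control shRNA, 23.4 ± 12 with its own shRNA, 46.6 ± 34.7 with the control vector and 105 ± 49.5 with its own vector (SD, n = 3). Neither change passed the test (edgeR adjusted p = 0.905 and 0.801). All 14 rod markers were measured, summing to between 5856 and 15536 CPM. The 12 microglia and macrophage markers summed to 2720 to 3256 CPM in pcDNA4c Control and to 10.2 to 83.5 in the other groups, where Tyrobp and C1qa were at 0 in each library of the group. Fewer cells of a type and less RNA per cell cannot be told apart in such libraries.

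Hnrnpk and Hnrnpa2b1 were the most abundant members per length in these rods, and the 7 highest members were all hnRNPs. Hnrnpk, a KH-domain protein that binds C-rich RNA, averaged 208 ± 97.2 TPM (transcripts per 1e6, SD over 12 libraries), and Hnrnpa2b1, which binds exons and sorts RNAs to their destinations, averaged 166 ± 46. Hnrnpd, also called AUF1 and known for binding AU-rich decay elements, came next at 120 ± 51.6 TPM, followed by Hnrnpa3 at 107 ± 56.2. Srsf5 was the highest SR protein at 73.5 ± 20.1 TPM, ahead of Srsf11, which regulates neuronal microexons, at 44.4 ± 23, and Srsf10 at 31.3 ± 14.9. At the other end were Srsf12 (3.40 ± 4.46 TPM), Hnrnpll, a regulator of exon exclusion in lymphocytes (6.38 ± 3.14), Hnrnpa0 (7.89 ± 5.54) and Srsf9 (12.1 ± 8.31).

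The order was loose between neighbours. Hnrnpk exceeded Hnrnpa2b1 in 7 of 12 libraries, Hnrnpa1 exceeded Srsf5 in 6, and Hnrnpu exceeded Hnrnpc in 4 although its mean was higher. Within the SR proteins only the top and bottom steps were steady, with Srsf5 above Srsf11 in 10 of 12 libraries and Srsf9 above Srsf12 in 11. Among 21893 protein-coding genes ranked by mean TPM, Hnrnpk stood at percentile 99.7 and Srsf12 at 57.5. The dinucleotide CG was counted in a window of 300 bases around the start site (RefSeq promoters of GRCm38, for each gene the promoter with the most). It occurred a median of 32 times in the 11 SR genes and 32.5 times in the 18 hnRNP genes that matched. The median over 27025 genes was 8, but those genes were not matched to the members in type or level.

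**Figure D1:**
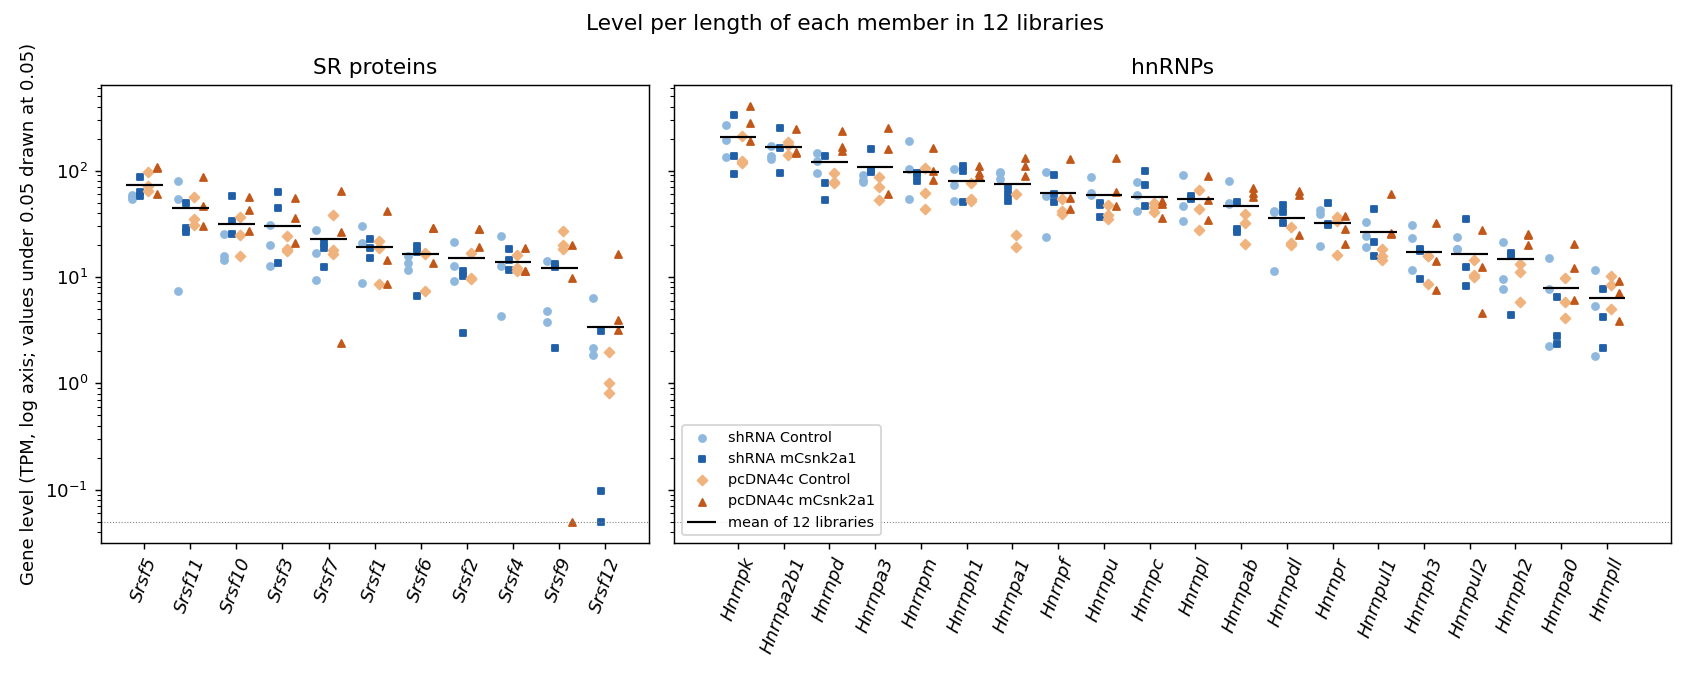
Level per length (TPM, log axis) of each SR protein (left) and hnRNP (right) in each of 12 libraries, with symbols for the 4 groups and a bar for the mean over the libraries. Means fall from 208 TPM for Hnrnpk to 3.40 TPM for Srsf12, and the libraries of neighbouring genes overlap.

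No SR protein and no hnRNP passed the test in any comparison. The comparisons were shRNA mCsnk2a1 against shRNA Control, pcDNA4c mCsnk2a1 against pcDNA4c Control, the control groups against each other, and the difference between the 2 Csnk2a1 effects. With edgeR's quasi-likelihood test and a Benjamini-Hochberg adjusted p under 0.05, the share of all 20267 tested genes called was 0% for the shRNA, 0.0987% for the vector, 0.0691% between the controls and 0.0197% for the difference. At an unadjusted p under 0.05 the members numbered 2, 1, 1 and 1 in these comparisons, against 8.33%, 8.73%, 4.21% and 8.34% of all genes. DESeq2, limma and the other fits called no member either, and the smallest adjusted p any of them gave was 0.145, for Hnrnpa1 with DESeq2 on the vector. The biological coefficient of variation, the spread between libraries of a group relative to the mean, was 1.26 in the joint fit. A gene that was not called may therefore still differ between groups.

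With the Csnk2a1 shRNA, 8 of 11 SR proteins had higher estimates than with the control shRNA, with a median log2 difference of 0.48 on the CPM scale. Of the 20 hnRNPs 13 had higher estimates, with a median of 0.31, and the median over all genes tested was -0.03. On the TPM scale the medians were 0.06 for SR proteins and -0.16 for hnRNPs, with all genes at -0.30. The sign of the hnRNP median thus depended on the scale. Both family medians were above that of all genes, by 0.51 and 0.34 on the CPM scale and by 0.36 and 0.14 on the TPM scale. With just the genes that had at least 50 counts in 3 libraries, they were above it by 0.37 and 0.19 on the CPM scale. The hnRNP median on the CPM scale was 0.05 without shRNA Control library 2 and 0.16 without shRNA mCsnk2a1 library 3. The rod markers also summed higher with the Csnk2a1 shRNA, at 12980 to 15536 CPM against 5975 to 8522, as did those of bipolar cells (875 to 2173 against 582 to 839), Muller glia (1092 to 1640 against 540 to 881), cones (179 to 241 against 119 to 176), amacrine, horizontal and ganglion cells (204 to 308 against 99.6 to 167) and progenitors (222 to 331 against 148 to 209), and the depth was higher. Estimates were higher for 14 of 14 rod, 7 of 9 bipolar, 8 of 9 Muller glia and 5 of 7 cone markers. They were higher for 7 of 9 amacrine, horizontal and ganglion markers but for only 4 of 8 progenitor markers (median 0.05). Microglia and macrophage markers summed lower (10.2 to 37.9 against 58.9 to 79.4). Their part in these differences was not tested.

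Srsf10, which represses splicing when it loses its phosphates after heat shock, had the smallest p of the SR proteins. Its level was 55, 31 and 36.3 CPM in shRNA Control libraries 1, 2 and 3 and 77, 94.2 and 168 CPM in shRNA mCsnk2a1. All libraries with the Csnk2a1 shRNA lay above all controls, on the TPM scale too. The log2 difference was 1.47 ± 0.63 (SE), which did not pass (edgeR adjusted p = 0.598). These levels sum the coding and other transcripts of Srsf10. The share of its TPM in coding transcripts was 52.9%, 88.7% and 28.2% in the controls and 16.9%, 14.9% and 26.6% with the shRNA. Its most abundant transcript, the noncoding Srsf10-207, was at 6.92, 1.62 and 0 TPM against 5.62, 24.2 and 42.7 TPM, which overlapped. Srsf3, the smallest SR protein and a well-known case of control by an early-stop exon, was at 106, 42.9 and 71.5 CPM in the controls and at 64.2, 276 and 203 CPM with the shRNA. Those groups overlapped through shRNA mCsnk2a1 library 1. The difference of 1.30 ± 0.62, or 0.86 without shRNA mCsnk2a1 library 2, did not pass (edgeR adjusted p = 0.598). The Srsf3 level also sums coding and other transcripts. Its coding transcript was at 7.67, 12.6 and 2.17 TPM in the controls and at 7.83, 11.4 and 0 TPM with the shRNA, which overlapped. Srsf5 rounded out the 3 smallest p-values, with 111, 116 and 128 CPM in the controls against 166, 232 and 172 CPM. These values did not overlap, but on the TPM scale they did, and the difference was 0.69 ± 0.45 (edgeR adjusted p = 0.747).

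Among the hnRNPs, Hnrnpa3, a paralog of Hnrnpa1 that binds the same class of RNA, had the smallest p. It measured 244, 282 and 268 CPM with the control shRNA and 442, 393 and 661 CPM with the Csnk2a1 shRNA, with no overlap on either scale. Its difference of 0.91 ± 0.45 did not pass (edgeR adjusted p = 0.6). Hnrnpa2b1 was at 289, 356 and 289 CPM in the controls and at 282, 445 and 713 CPM with the shRNA, so that library 1 lay below the controls and the others above them. Its difference was 0.62 ± 0.40 (edgeR adjusted p = 0.726), or 0.22 without shRNA mCsnk2a1 library 3. Hnrnpc, the CK2 substrate that binds uridine tracts, was at 192, 101 and 153 CPM against 160, 310 and 236 CPM (0.66 ± 0.48, edgeR adjusted p = 0.799). Its groups overlapped too, and the difference was 0.42 without shRNA Control library 2 and 0.41 without shRNA mCsnk2a1 library 2.

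Counted over all members on the CPM scale, 2 SR proteins (Srsf10 and Srsf5) and 2 hnRNPs (Hnrnpa3 and Hnrnpdl) had all shRNA mCsnk2a1 libraries above all shRNA Control libraries, and none lay below (Hnrnpdl is named after its values were seen, as are the other genes outside the naming rule). Of all genes tested, 5.61% lay above and 6.68% below. On the TPM scale Srsf10 and Hnrnpa3 lay above, and Hnrnpa1 and Hnrnpu below, where 3.2% of the tested genes with TPM values lay above and 10.2% below. Srsf1, the founding SR protein, was at 99, 67.9 and 30.6 CPM in the controls and at 106, 78.8 and 66 CPM with the shRNA, which overlapped. Its log2 difference of 0.34 ± 0.73 turned to -0.02 without shRNA Control library 3, and was 0.75 without shRNA Control library 1 and 0.15 without shRNA mCsnk2a1 library 1.

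**Figure D2:**
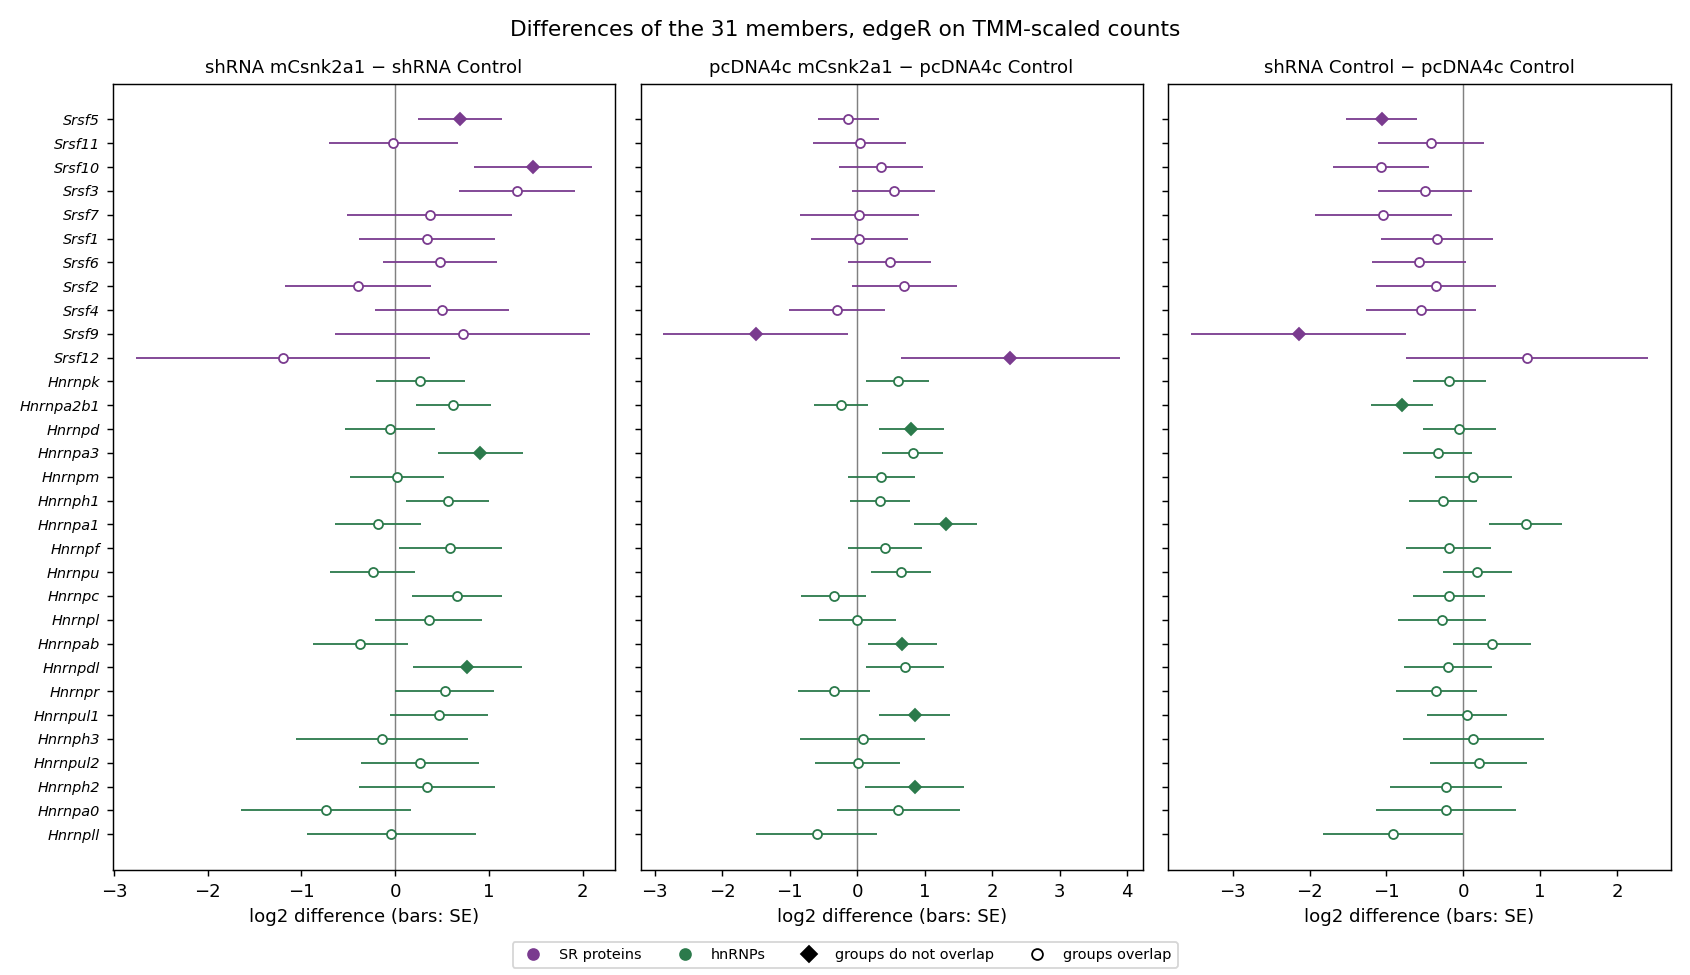
Log2 difference (edgeR, CPM scale) of each member in the Csnk2a1 shRNA, Csnk2a1 vector and control-group comparisons, with bars for the standard error. Filled diamonds mark members whose groups do not overlap, such as Srsf10 at 1.47 with the shRNA and Hnrnpa1 at 1.31 with the vector, and none of the 31 passed the adjusted threshold.

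With the Csnk2a1 vector 15 of 20 hnRNPs had estimates above pcDNA4c Control, with a median of 0.50 on the CPM scale, against -0.16 over all genes. For the SR proteins 8 of 11 estimates were above 0, but their median was 0.04. On the TPM scale the medians were 0.77 for the hnRNPs, 0.32 for the SR proteins and -0.06 for all genes. With just the genes that had at least 50 counts in 3 libraries, they were 0.52, 0.07 and 0.07 on the CPM scale, in the same order. With library sizes alone as the scaling the SR median was -0.07. Leaving out 1 library at a time, it ran from -0.14 (without pcDNA4c Control library 3) to 0.32 (without pcDNA4c mCsnk2a1 library 1 or 2), and the hnRNP median was 0.27 without pcDNA4c mCsnk2a1 library 2. All 3 pcDNA4c Control libraries held the microglia and macrophage marker RNA described above. Bipolar markers summed to 364 to 541 CPM in these controls and 1022 to 1299 with the vector, with all 9 estimates higher. Cone markers summed to 126 to 204 CPM and 70.9 to 102, with 1 of 7 estimates higher and Opn1sw and Opn1mw at 0 with the vector. Muller glia markers summed to 1244 to 1627 CPM and 618 to 707, but 6 of 9 estimates were higher with the vector (median 0.73), and Apoe was the 1 called lower by edgeR. The part of these marker differences in the family values was not tested.

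Hnrnpa1, which silences exons and opposes Srsf1 at splice sites, had the smallest p of all members in any comparison. It was at 114, 275 and 82.5 CPM with the control vector and at 380, 473 and 319 CPM with the Csnk2a1 vector. All libraries with the vector were above all of their controls, on both scales. The log2 difference was 1.31 ± 0.47, or 1.98 without pcDNA4c Control library 2, and did not pass (edgeR adjusted p = 0.568). In the shRNA groups Hnrnpa1 was at 288, 243 and 294 CPM in the controls and at 290, 198 and 238 CPM with the Csnk2a1 shRNA. The difference between the Csnk2a1 effects was 1.50 ± 0.66 for this gene (edgeR adjusted p = 0.562).

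Hnrnpa3 was at 262, 341 and 396 CPM in pcDNA4c Control and at 220, 952 and 596 CPM with the vector. Library 1 with the vector lay below all controls and the other libraries above them. The difference was 0.82 ± 0.45 (edgeR adjusted p = 0.603), or 1.27 without that library and 0.32 without library 2 with the vector. Hnrnpd was at 202, 162 and 154 CPM against 264, 388 and 251 CPM, groups that did not overlap on either scale (0.80 ± 0.48, edgeR adjusted p = 0.659). Hnrnpc had a lower estimate, with 190, 174 and 147 CPM in the controls and 102, 144 and 154 CPM with the vector (-0.35 ± 0.48, edgeR adjusted p = 0.968), and the difference was -0.14 without library 1 with the vector.

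The SR proteins with the smallest p under the vector were among the scarcest ones. Srsf12 was at 5.9, 13.5 and 6.65 CPM in pcDNA4c Control and at 20.6, 88.7 and 17.1 CPM with the vector. Its groups did not overlap, and the difference was 2.27 ± 1.62, or 1.13 without library 2 (edgeR adjusted p with all libraries = 0.775). In the shRNA groups Srsf12 was at 8.3, 28 and 10.2 CPM and at 19.5, 0 and 0.713 CPM, where the 0 allows up to 0.91 CPM (3 counts, counting error only). Srsf9 was at 68.9, 51 and 44.3 CPM in the pcDNA4c controls and at 38.5, 0 and 19.5 CPM with the vector, where the 0 allows up to 0.926 CPM. Those groups overlapped on the TPM scale, and the difference of -1.50 ± 1.37 did not pass (edgeR adjusted p = 0.888). It was -2.44 without library 1 with the vector and -0.90 without library 2. Srsf2, known as SC35 and a marker of nuclear speckles, was at 72.8, 41 and 39.9 CPM against 90.5, 94 and 64.4 CPM (0.70 ± 0.78, edgeR adjusted p = 0.939). Srsf3 was at 96.9, 93.5 and 122 CPM in the controls and at 141, 86.2 and 228 CPM with the vector. The groups overlapped, and the difference of 0.54 ± 0.61 was 0.85 without library 2 with the vector and 0.15 without library 3. Srsf1 was at 96.9, 112 and 41.5 CPM against 54.7, 168 and 33.9 CPM, a difference of 0.03 ± 0.72 whose sign changed between fits and when 1 library was left out (-0.90 without library 2 with the vector and 0.45 without library 3).

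On the CPM scale 5 of 20 hnRNPs (Hnrnpa1, Hnrnpab, Hnrnpd, Hnrnph2 and Hnrnpul1) had all libraries with the vector above all pcDNA4c Control libraries, and none lay below. Over all genes tested, 3.73% lay above and 11.8% below. On the TPM scale the same 5 genes and Hnrnph1 lay above, where 6.44% of the tested genes with TPM values lay above and 9.12% below. Hnrnph2, a G-run binder, averaged 58.7 ± 23.3 CPM in the controls and 106 ± 15.7 with the vector, and Hnrnpab averaged 118 ± 36.8 and 188 ± 20.6 CPM (SD, n = 3). Neither passed the test (edgeR adjusted p = 0.860 and 0.807). Of the SR proteins Srsf12 lay above and Srsf9 below on the CPM scale, and Srsf12 and Srsf2 lay above on the TPM scale, beside the same shares of all genes.

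Between the control groups most SR estimates had the same sign. Of 11 estimates 10 were lower with the control shRNA than with the control vector, with a median of -0.55 against 0.00 over all genes, and none passed the test. That median was -0.90 without shRNA Control library 2. On the TPM scale 6 of 11 were lower, with a median of -0.20 against 0.29 over all genes. Srsf5 was at 111, 116 and 128 CPM in shRNA Control and at 316, 230 and 196 CPM in pcDNA4c Control, without overlap on either scale (-1.06 ± 0.46, edgeR adjusted p = 1). Srsf9 did not overlap either, at 7.78, 22.6 and 6.81 CPM against 68.9, 51 and 44.3 CPM. Srsf10 overlapped, at 55, 31 and 36.3 CPM against 124, 54.5 and 78.7 CPM (-1.07 ± 0.63, edgeR adjusted p = 1, or -0.71 without pcDNA4c Control library 1). Markers also separated these groups: with the control shRNA those of microglia and macrophages summed to 58.9 to 79.4 CPM against 2720 to 3256 with the control vector, those of Muller glia to 540 to 881 against 1244 to 1627 (though 7 of 9 estimates were higher with the control shRNA, and Apoe was called lower), and those of bipolar cells to 582 to 839 against 364 to 541. Their part in the differences between the controls, of either family, was not tested. The shRNA Control libraries are also the ones that the Csnk2a1 shRNA is compared with above, and pcDNA4c Control is the reference of the vector.

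For the hnRNPs the direction between the control groups depended on the scale. On the CPM scale 13 of 20 estimates were lower in shRNA Control, with a median of -0.19 (0.02 without shRNA Control library 2), and on the TPM scale 18 of 20 were higher, with a median of 0.32 that was close to the 0.29 of all genes. Hnrnpa2b1 was at 289, 356 and 289 CPM in shRNA Control and at 618, 572 and 432 CPM in pcDNA4c Control, the 1 hnRNP without overlap on the CPM scale, where 5.13% of all genes lay above and 8.56% below (-0.80 ± 0.40, edgeR adjusted p = 1). Its groups overlapped in TPM, while Hnrnpa1, Hnrnpab, Hnrnpu, Hnrnpul1 and Hnrnpul2 lay above in shRNA Control and none below, where 11.7% of the tested genes with TPM values lay above and 4.66% below. Hnrnpa1 had a higher estimate in shRNA Control on the CPM scale too, by 0.81 ± 0.47 (edgeR adjusted p = 1), or 1.47 without pcDNA4c Control library 2 and 0.51 without library 3.

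The summed level of each family shows how far the scale matters. The SR proteins summed to 691, 753 and 463 CPM with the control shRNA and to 759, 1052 and 1052 CPM with the Csnk2a1 shRNA, groups that did not overlap, with a log2 ratio of means of 0.59. In TPM the sums were 256, 286 and 159 against 211, 300 and 292, which overlapped (0.20). In the pcDNA4c groups the order of the scales was reversed: the SR sums overlapped in CPM (1197, 1058 and 871 against 1031, 1306 and 1131, ratio 0.15) and did not in TPM (313, 260 and 227 against 342, 390 and 344, ratio 0.43). The SR sums of the control groups did not overlap in CPM either: all shRNA Control libraries were below all pcDNA4c Control libraries, with a log2 ratio of -0.71, and in TPM they overlapped (-0.19).

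The hnRNPs summed to 3089 to 3820 CPM with the control shRNA and 3592 to 4855 with the Csnk2a1 shRNA, and to 3294 to 3918 with the control vector and 3500 to 6422 with the Csnk2a1 vector. The groups overlapped in each comparison made on that scale. In TPM the sums were 976, 1014 and 888 for the control vector and 1257, 2052 and 1648 for the Csnk2a1 vector, without overlap (0.78). The hnRNP sums of shRNA Control, at 1536, 1211 and 1152 TPM, also lay above all pcDNA4c Control libraries (0.44), and overlapped those of shRNA mCsnk2a1. The members' CPM per TPM was 2.52 to 2.71 for the control shRNA, 3.20 to 3.62 for the Csnk2a1 shRNA, 3.73 to 3.91 for the control vector and 2.83 to 3.16 for the Csnk2a1 vector. For well-covered genes the counts are TPM times a factor for the gene and a constant for the library. For such genes the scales thus differ by that constant, which this ratio follows, and not in what was measured. Between the shRNA groups the log2 ratio of the SR sums was 0.59 in CPM and 0.20 in TPM. That of the hnRNP sums was 0.33 in CPM and -0.07 in TPM. Which scale is closer to the RNA amounts in the cells was not tested.

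**Figure D3:**
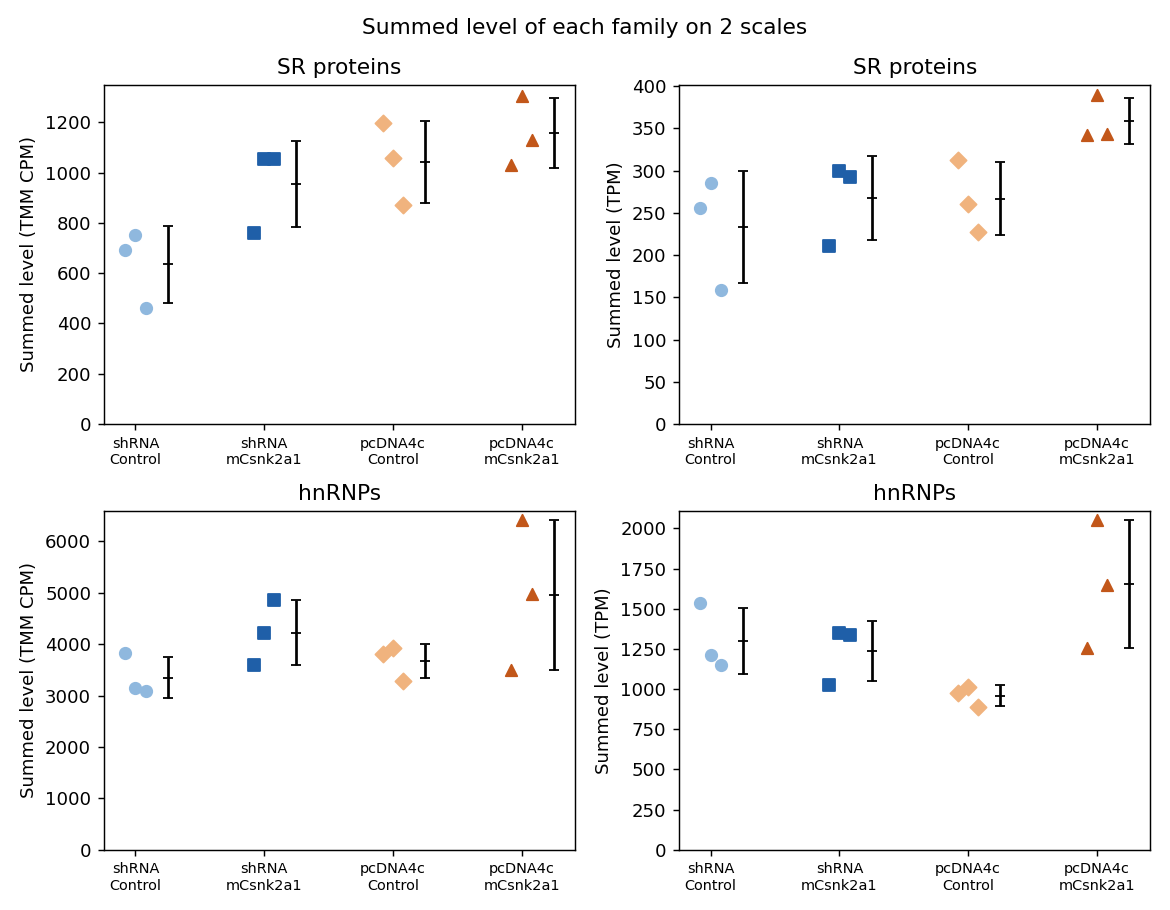
Summed level of the SR proteins (top) and hnRNPs (bottom) by library in TMM-scaled CPM (left) and in TPM (right), with mean and SD for each group of 3. The SR sum of shRNA mCsnk2a1 lies above shRNA Control in CPM only, and the hnRNP sum of pcDNA4c mCsnk2a1 lies above pcDNA4c Control in TPM only.

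Genes that work with these families were also measured: 7 SR protein kinases, 14 SR-related proteins, 14 hnRNP-class proteins with other symbols and 36 core spliceosome proteins. None was called in either direction in any comparison by edgeR (6 of the 7 kinases were tested, and all of the others). At an unadjusted p under 0.05 there were 0, 2, 3 and 4 of them with the shRNA and 1, 0, 0 and 1 with the vector. These counts are in the order of the lists and stand beside 8.33% and 8.73% of all genes. With the Csnk2a1 shRNA 13 of 14 SR-related proteins, 12 of 14 hnRNP-class proteins and 25 of 36 spliceosome proteins had higher estimates, with medians of 0.49, 0.99 and 0.49, while the kinases had 3 higher estimates and a median of -0.17. Over all genes 48.9% of these estimates were higher, with a median of -0.03. With the Csnk2a1 vector the medians were 0.39, 0.30, 0.28 and -0.46 in the same order, against -0.16 over all genes. The control shRNA against the control vector gave 2 of 14 SR-related and 1 of 14 hnRNP-class estimates higher (medians -0.36 and -0.54), and both sums lay below without overlap. There 20 of 36 spliceosome and 4 of 6 kinase estimates were higher, with overlapping sums. All of these values are on the CPM scale.

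In each list the gene with the smallest p was as follows. Sf3a2, a subunit of the U2 snRNP factor SF3A, averaged 27.4 ± 10.3 CPM with the control shRNA and 139 ± 45.6 with that against Csnk2a1, without overlap (2.34 ± 0.76, edgeR adjusted p = 0.598). Pcbp2, a poly(C)-binding relative of Hnrnpk, averaged 204 ± 108 and 496 ± 159 CPM in these groups (edgeR adjusted p = 0.598), and Bclaf1 averaged 159 ± 37.1 and 346 ± 134. Clk2, one of the kinases, averaged 35.1 ± 34.2 and 14.6 ± 11 CPM, with overlap. With the vector Clk1, a kinase that releases SR proteins from speckles, averaged 173 ± 48 CPM in the controls and 65.6 ± 17.6 (-1.40 ± 0.61, edgeR adjusted p = 0.568). Snrnp70, a U1 snRNP protein, averaged 224 ± 66.1 and 70.3 ± 64.9 CPM (-1.67 ± 0.71, edgeR adjusted p = 0.568), and the groups of both genes did not overlap. Bclaf1 (0.64 ± 0.44) and Pcbp3 (0.98 ± 0.54) overlapped.

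A large part of the RNA assigned to these genes was not in transcripts annotated as protein coding. The share of TPM in coding transcripts ran from 38.7% to 74.7% over the 12 libraries for the SR proteins and from 57.9% to 74.5% for the hnRNPs, against 64.8% to 70.3% for all protein-coding genes. Decay transcripts held 0.39% to 21.4% of the SR proteins' TPM and 5.57% to 22.6% of the hnRNPs', against 4.33% to 5.49% over all protein-coding genes. The annotation behind these shares has 87 SR transcripts, of which 31 are coding and 15 are decay transcripts, and 195 hnRNP transcripts, of which 104 are coding and 20 are decay transcripts. The transcript values are estimates by a program that divides reads among overlapping transcripts, and the median length of the members' coding transcripts, 1898 bases, is above the 980 of the decay transcripts and the 846 of those with a retained intron.

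Decay transcripts of the hnRNPs held a smaller share in each library with the Csnk2a1 shRNA than in any of its controls. They made up 13.7%, 16.2% and 22.6% of the hnRNPs' TPM in shRNA Control and 6.65%, 8.18% and 5.57% in shRNA mCsnk2a1, while the share over all protein-coding genes was 4.79 ± 0.2% and 4.86 ± 0.154% (SD, n = 3). With the control vector the hnRNP share was 15.9%, 15.9% and 8.03%, and with the Csnk2a1 vector it was 11.9%, 11.5% and 15%. No test was run on the family sum. For the SR proteins the decay share lay higher with the Csnk2a1 vector, at 11.5%, 10.4% and 21.4% against 7.43%, 6.84% and 8.02% in pcDNA4c Control, while the shRNA groups overlapped. Their coding share lay higher with the vector too, at 52.9% to 57.7% against 38.7% to 51.5%, as did that of all protein-coding genes (67.5% to 70.3% against 64.8% to 65.6%). Among the hnRNPs Hnrnpk and Hnrnpd held the most decay TPM, and without these 2 genes the shares were 7.26%, 15.2% and 13.8% in shRNA Control and 6.33%, 8.62% and 5.45% in shRNA mCsnk2a1, which overlapped.

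Of single decay transcripts, Hnrnpd-209, the one with the usual stop, was at 52.4, 0 and 66.6 TPM in shRNA Control and at 0 in all 3 shRNA mCsnk2a1 libraries. It was at 36.4, 10.7 and 20.9 TPM in pcDNA4c Control and at 0, 0 and 2.48 TPM in pcDNA4c mCsnk2a1, so that only the pcDNA4c groups did not overlap. Hnrnpk-229 was listed at 0 in 6 of 12 libraries and was between 43.6 and 77.2 TPM in the others, among them none of the shRNA mCsnk2a1 libraries. Hnrnpu-206 was measured in all 12 libraries, at 14.4 to 43.6 TPM. Srsf3-201, with its early stop, was at 22.3, 0 and 15.9 TPM in shRNA Control. In shRNA mCsnk2a1 it was at 0, 12.3 and 8.59 TPM, which overlapped. Another Srsf3 decay transcript was at 0 in each shRNA Control library and at 0, 29.4 and 0 TPM in shRNA mCsnk2a1. A noncoding Srsf3 transcript was at 3.94e-08, 0 and 0 TPM against 0, 5.99 and 35.6 TPM in these groups. A 0 here can be a failed estimate, since Hnrnpd and Hnrnpk themselves were far above 0 in these libraries.

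Among single genes with coding and other transcripts (10 SR proteins and 16 hnRNPs), the coding share of Hnrnpd was 51.3%, 51.5% and 51.2% in shRNA Control and 87%, 99.2% and 78% in shRNA mCsnk2a1. These groups did not overlap, and the two-sided exact permutation p was 0.1, the smallest that 3 against 3 libraries allow. Any gene whose groups do not overlap has this p, so it adds nothing to the lack of overlap here or below. In the pcDNA4c groups it was 43.4%, 63% and 61.7% against 90.5%, 100% and 51.6%, which overlapped. Srsf10 and Srsf4 had lower shares with the shRNA: the Srsf10 share was 52.9%, 88.7% and 28.2% in the controls and 16.9%, 14.9% and 26.6% with the shRNA, and that of Srsf4 was 100% in each control and 56.8%, 96.1% and 84.7% (exact p = 0.1 for each). Over the genes with such values, 3.96% lay above and 3.27% below without overlap in that comparison. Under the vector Srsf2, Srsf5 and Hnrnpl lay above their controls and Hnrnpu below, where 7.75% of genes lay above and 3.33% below. The Srsf5 share was 50.5%, 53% and 49.9% in pcDNA4c Control and 99.6%, 70.7% and 83.1% with the vector (exact p = 0.1). Between the control groups Srsf2, Srsf4, Srsf6, Srsf11, Hnrnpc and Hnrnpl had a higher coding share in shRNA Control and Hnrnpu a lower one, where 5.28% of genes lay above and 3.86% below.

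Hnrnpu, the scaffold attachment factor that binds chromatin and RNA, and Hnrnpll had the lowest mean coding shares, 5.54% and 7.46%. The Hnrnpll share was 74.9% in shRNA mCsnk2a1 library 2, 14.6% in pcDNA4c Control library 3 and 0 in all other libraries. The share of Hnrnpu was 1.88% to 9.82% in the 12 libraries, with the decay transcript Hnrnpu-206 and the noncoding Hnrnpu-203 above 0 in each of them. The SR proteins' retained-intron share was 27.5%, 27% and 25.5% in pcDNA4c Control, above pcDNA4c mCsnk2a1 (21%, 15.8% and 10.1%) and shRNA Control (25.3%, 20.5% and 7.66%). The share over all protein-coding genes was likewise highest there, at 17.5% to 18% against 13.5% to 16.9% in the other groups. The hnRNP retained-intron share was 13.7%, 20.1% and 14.1% in pcDNA4c Control and 8.7%, 13.6% and 9.56% in pcDNA4c mCsnk2a1.

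**Figure D4:**
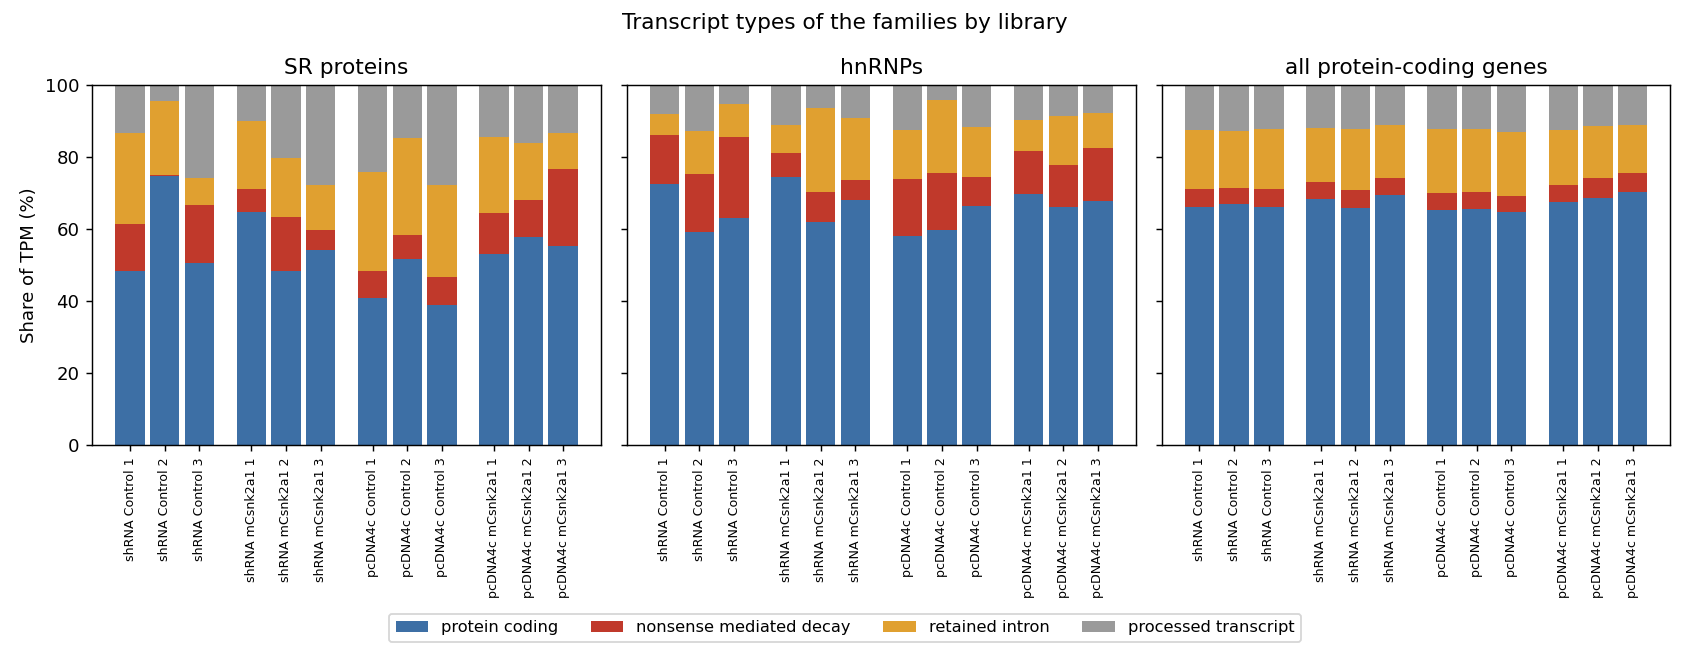
Share of TPM (%) in coding, decay, retained-intron and other processed transcripts for the SR proteins, the hnRNPs and all protein-coding genes in each library. The hnRNP decay share (red) is 5.57% to 8.18% in shRNA mCsnk2a1 and 13.7% to 22.6% in shRNA Control.

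**Figure D5:**
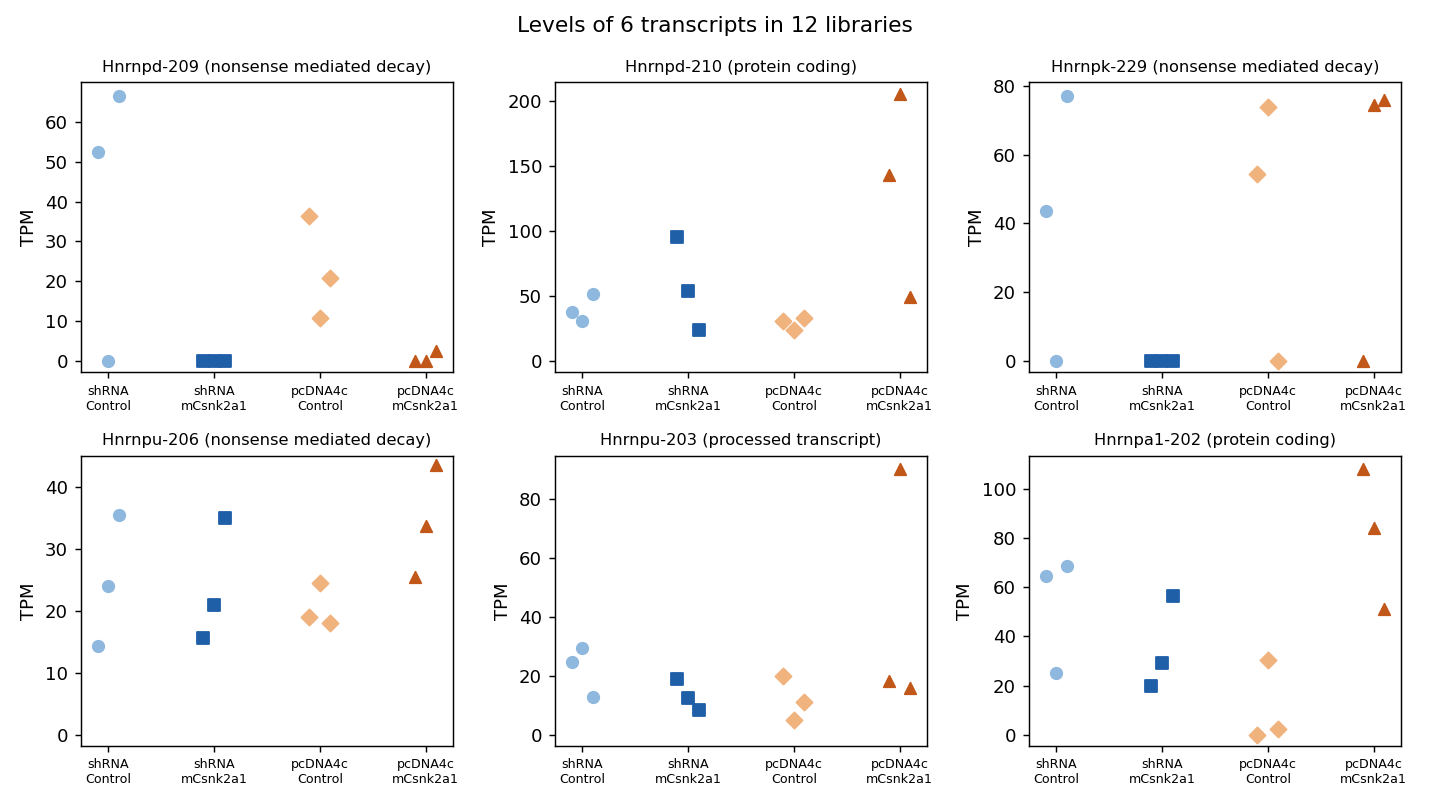
TPM of 6 hnRNP transcripts in each of the 12 libraries by group, chosen after their values were seen. Hnrnpd-209 and Hnrnpk-229 are at 0 in all 3 shRNA mCsnk2a1 libraries and also in shRNA Control library 2.

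Some members lie close together in the genome. Hnrnpd and Hnrnpdl, paralogs that both bind AU-rich RNA, are 54638 bases apart on chromosome 5, and Hnrnpll and Srsf7 are 137745 bases apart on chromosome 17. Hnrnpdl averaged 97.7 ± 52.7 CPM with the control shRNA and 166 ± 25.1 with the Csnk2a1 shRNA (SD, n = 3), while Hnrnpd averaged 167 ± 40.1 and 162 ± 84.6. The 2 pseudogenes listed as Hnrnpa1 copies held at most 0.0785% of the members' summed counts in a library, but reads from unlisted copies of Hnrnpa1 could be assigned to it.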

How the data were processed

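Tools named in the submitters' processing notes are kallisto 0.45.0 and edgeR 3.28, on build mm10 (GRCm38), with no settings. The deposited gene table holds estimated counts for 52962 genes (99.9% of values above 0 are not whole, tolerance 1e-6), which were rounded here. A second deposited table, titled as counts, holds TPM for 141196 transcripts, since its columns sum to 1e6. Its gene sums follow the gene counts by 1 constant a library within 1% for 98.3% of 3892 well-covered genes, so both tables hold the same estimates. For those genes the counts are thus TPM times a factor for the gene and a constant for the library. The remaining deposited table, of unit signal, is the gene counts times 1 constant a library for 11 libraries. It served as an alternative only, and pcDNA4c mCsnk2a1 library 1 is not analysed on that scale.

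Differences were fitted with edgeR 4.0.16 in R 4.3.3 (quasi-likelihood test, filterByExpr with a minimum count of 10, TMM, all 12 libraries in 1 fit, Benjamini-Hochberg over 20267 genes, threshold 0.05), and the scripts were tested on simulated data. A standard error is the log2 difference divided by the square root of F. DESeq2 1.42.0 and limma 3.58.1 gave alternatives, with a pseudocount of 1 on TPM. Library depth ranged from 1608926 to 3567121 counts. The floors given for values of 0 cover counting error only. Genomic positions are those of GENCODE M21, where all 31 members were found with the deposited coordinates.

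The families and gene lists were chosen with earlier results of these data known, and the symbol rule for the members uses no measured value. Values per library are given for the 3 members of each family with the smallest p with the shRNA and with the vector, the 2 between the controls, and for Hnrnpc, Srsf3 and Srsf1. Levels are given for the 3 highest and 2 lowest of each family. Same-numbered libraries did not deviate together (correlations from -0.04 to 0.01). That shows no pairing by number but cannot exclude one, since libraries of a group differed widely. Coding shares of single genes were compared by a two-sided exact permutation test over libraries.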

Additional observations from a re-analysis of the deposited data

How the results depend on the processing

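No member was called under any alternative run. The counts of all genes called moved most: with the shRNA 0 became 93 without the low-count filter, 183 with DESeq2, 2 with limma voom, 5 with limma on the deposited scaled table and 1 with limma on TPM. With the vector 20 became 111, 249, 37, 48 and 63 under the same settings, and 6 when just the pcDNA4c libraries were fitted. Between the controls 14 became 71, 69, 26 (scaled table) and 49 (TPM). For the difference between the effects 4 became 137, 209, 1, 16 and 25, and 2 with RLE size factors or at least 50 counts in 3 libraries. With the replicate number as a block, a pairing that the labels do not state, the counts were 1 with the shRNA and 9 for the difference. The median of the SR proteins in the difference was then -0.79.

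On the TPM scale, chosen after seeing the data, the hnRNP medians were -0.16 with the shRNA, 0.77 with the vector, 0.32 between the controls and 0.62 for the difference. Those of the SR proteins were 0.32 with the vector and 0.04 for the difference. For the difference limma voom gave -0.75 for the SR proteins, and the scaled table gave 0.38 for the hnRNPs. With decay transcripts counted as coding, the coding share of the SR proteins was 64.6% for the Csnk2a1 shRNA, 51.1% for the control vector and 69.7% for the Csnk2a1 vector, and that of the hnRNPs was 82.3% for the control shRNA and 75%, 74.6% and 80.6% in the other groups in that order. Srsf1 with the vector changed sign, to -0.12 with library sizes only, -0.16 with limma voom, -0.00 on the scaled table and -0.06 with the replicate block. The TPM run differed from the main run in the constant for each library and in the fit, by limma. The part of that fit, and the cause of the other changes, were not tested.

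Leaving out 1 library at a time gave 0 to 2 genes with the shRNA, 14 to 35 with the vector (35 without pcDNA4c mCsnk2a1 replicate 1), 11 to 15 between the controls and 2 to 16 for the difference (16 without that library). The SR medians ran from 0.33 to 0.65, -0.14 to 0.32, -0.90 to -0.50 and -0.69 to -0.02, and the hnRNP medians from 0.05 (without shRNA Control replicate 2) to 0.46, 0.27 to 0.71, -0.23 to 0.02 and -0.23 to 0.38. Srsf1 ran from -0.02 to 0.75 with the shRNA and from -0.90 to 0.45 with the vector (-0.29 without pcDNA4c Control replicate 3 and -0.90 without pcDNA4c mCsnk2a1 replicate 2). What depth limits was not tested: the libraries where Srsf12 and Srsf9 were at 0, with 3567121 and 3551328 counts, were the 2 deepest of the 12.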
